A study of Homo sapiens with 2 samples.

Results

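The genes described here carry glucose through glycolysis to lactate and through the pentose phosphate pathway. They are 30 genes listed by symbol, for the glucose transporter, the enzymes of glycolysis, the PFKFB regulators of phosphofructokinase, lactate dehydrogenase and the lactate transporters, the pentose phosphate enzymes and 2 phosphoglucomutases. Of these, 29 had a row among the 51802 gene symbols analysed, and all 29 averaged 1 TPM or more. PGLS was not analysed here. Expression was measured by RNA-seq of total RNA in 22Rv1, an established human prostate cancer cell line, in 1 library with a vector control (shCON) and 1 library with a short hairpin RNA against EIF3F (shEIF3F). EIF3F encodes a subunit of the translation initiation factor eIF3. There were no replicates, so every difference below lacks an error and a p-value, and effects of the single hairpin beyond EIF3F cannot be told apart from loss of the gene. Values are TPM, transcript abundances scaled to the length of the transcript and the total of the library, so levels of different genes can be set side by side within a library.

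Glycolysis takes glucose in through transporters such as SLC2A1, traps it by phosphorylation, splits it into triose phosphates and oxidises these to pyruvate. Lactate dehydrogenase interconverts pyruvate and lactate, and proton-coupled transporters of the SLC16A family carry lactate across the plasma membrane. The pentose phosphate pathway branches off at glucose 6-phosphate, where its oxidative arm yields NADPH and ribulose 5-phosphate. Its non-oxidative arm makes ribose for nucleotides and exchanges sugars with glycolysis. Proliferating tumour cells are known for a high use of glucose with lactate release.

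EIF3F had 991 TPM in shCON, and shEIF3F had 17.0 TPM or 1.72% of that, which is the direction given by the labels. These are called the control and the knockdown library below, and paired values are in that order. The library totals were 992454 and 994055 TPM. Read numbers cannot be had from TPM, so depth is unknown. All 9 luminal prostate markers examined were present at a mean above 1 TPM, but they differed between the libraries in both directions. In shEIF3F, 4 (44.4%) were at least 2-fold lower and 2 (22.2%) at least 2-fold higher. The 13310 genes averaging at least 1 TPM had 25.5% lower and 8.44% higher. These marker counts depended on the scaling. Under the centring described below, 2 markers were lower and 3 higher, beside 16% and 14.7% of genes. Removal of the GC trend, also described below, left the same 2 and 3, beside 13.9% and 13.3%. The kallikrein KLK2 stood at 32.6 and 2.50 TPM, the keratin KRT8 at 301 and 347 TPM, and the adhesion molecule EPCAM at 17.5 and 60.5 TPM. The endothelial markers VWF and CDH5 were listed at 0 in both libraries and PECAM1 reached at most 0.05 TPM. Among immune markers, PTPRC reached at most 0.11 TPM and CD3E at most 0.03 TPM. The summed level of 4 fibroblast markers was 39.9 and 26.9 TPM, and that of the haemoglobin genes HBB and HBA1 was 129.7 and 70.4 TPM. The part of these transcripts in the results was not tested. In bulk RNA, a change in the number of cells of a kind cannot be told apart from a change in RNA per cell.

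Most of the pathway was lower in shEIF3F, and no gene of it was at least 2-fold higher. Of the 29 genes, 17 (58.6%) were at least 2-fold lower on the scale log2((shEIF3F TPM + 1) / (shCON TPM + 1)), the log2 ratio used below. The 2-fold limit describes size alone and tests nothing. Over the 13310 genes that averaged 1 TPM or above, 25.5% passed 2-fold downwards and 8.44% upwards. The pathway had a median log2 ratio of -1.50, beside -0.36 for all genes tested. A total of 11 pathway genes (37.9%) lay in the lowest 10% of all log2 ratios, namely SLC16A3, PFKFB3, PFKP, HK1, HK2, PFKL, PKM, RPIA, PGAM1, PFKFB4 and LDHA. The genes of glycolysis and lactate accounted for 16 of the 17, out of 22 measured, with a median log2 ratio of -1.63. In the pentose phosphate pathway 1 of 5 was at least 2-fold lower and the median was -0.54, and neither phosphoglucomutase passed 2-fold. The difference between these arms was not tested. The 29 genes together took 1.47% of the shCON total and 0.833% of the shEIF3F total, a sum of 14581 and 8285 TPM, of which GAPDH alone held 39.9% and 37.4%.

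**Figure D1:**
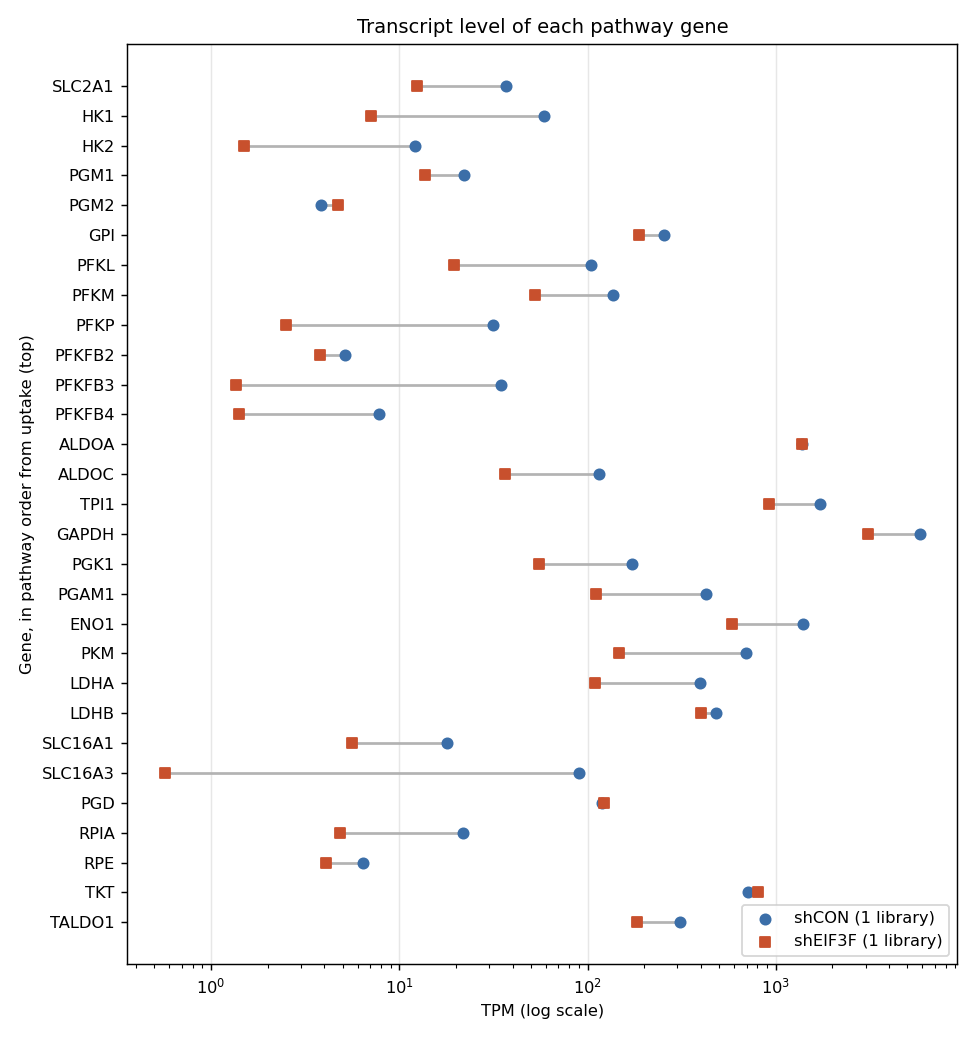
TPM of each of the 29 pathway genes (log x axis) in the shCON library (circles) and the shEIF3F library (squares), in pathway order from uptake at the top. SLC16A3 has the widest gap, from 90.3 to 0.57 TPM, while ALDOA and PGD nearly coincide.

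Many of these genes were lower together, and the sequence before their transcription starts was searched for ACGTG, the core of the hypoxia response element, and for CACGTG, the E-box read by MYC and by carbohydrate-sensing factors. Both strands were read over windows of 300 bases, 250 before and 50 after the start, from RefSeq (GRCh38.p14). CACGTG contains ACGTG on both strands and so counts as 2 matches of the shorter motif. The stretches below are the 250 bases before the start, on the plus strand and 5′ to 3′, with ACGTG on either strand in capitals. They come from 4 genes that were at least 2-fold lower and from ALDOA, which was level, and for each gene the start with the most matches is shown.
SLC16A3, chr17:82228792-82229041: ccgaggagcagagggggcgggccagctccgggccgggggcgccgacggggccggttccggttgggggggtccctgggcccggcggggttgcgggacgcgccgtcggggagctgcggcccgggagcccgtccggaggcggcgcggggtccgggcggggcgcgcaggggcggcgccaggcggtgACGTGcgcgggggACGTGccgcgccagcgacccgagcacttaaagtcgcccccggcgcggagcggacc
PFKFB3, chr10:6202682-6202931: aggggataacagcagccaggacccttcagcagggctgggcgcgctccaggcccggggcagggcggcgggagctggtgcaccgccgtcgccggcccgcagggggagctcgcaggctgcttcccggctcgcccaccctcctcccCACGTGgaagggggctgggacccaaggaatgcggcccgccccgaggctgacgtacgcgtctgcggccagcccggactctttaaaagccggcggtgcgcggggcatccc
HK2, chr2:74834920-74835169: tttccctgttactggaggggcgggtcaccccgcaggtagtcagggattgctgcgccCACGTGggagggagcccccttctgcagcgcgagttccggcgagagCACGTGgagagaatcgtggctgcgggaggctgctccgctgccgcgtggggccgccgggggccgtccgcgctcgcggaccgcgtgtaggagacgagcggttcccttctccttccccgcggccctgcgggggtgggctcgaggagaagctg
LDHA, chr11:18394313-18394562: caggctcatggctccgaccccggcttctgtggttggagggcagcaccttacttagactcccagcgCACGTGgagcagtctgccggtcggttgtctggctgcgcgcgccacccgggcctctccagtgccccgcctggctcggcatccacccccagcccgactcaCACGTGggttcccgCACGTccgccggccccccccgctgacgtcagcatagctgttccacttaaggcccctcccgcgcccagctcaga
ALDOA, chr16:30064247-30064496: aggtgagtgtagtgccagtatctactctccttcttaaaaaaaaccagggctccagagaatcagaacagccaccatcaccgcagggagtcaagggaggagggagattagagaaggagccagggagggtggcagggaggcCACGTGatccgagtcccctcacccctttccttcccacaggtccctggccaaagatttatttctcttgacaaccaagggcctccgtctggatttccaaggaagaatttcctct
The window of SLC16A3 held 2 separate matches to ACGTG and that of PFKFB3 held 1 CACGTG. Those of HK2 and LDHA each held 2 CACGTG, and LDHA a further single match. ALDOA, with nearly equal levels in both libraries, also held 1 CACGTG. Listed starts numbered 5 for SLC16A3, 3 for ALDOA and 2 each for PFKFB3, HK2 and LDHA. The other listed starts of SLC16A3, PFKFB3 and LDHA held no ACGTG. Of 27 pathway genes matched by symbol (SLC16A1 and PFKFB2 were not), 8 of 16 that were at least 2-fold lower had ACGTG at one or more of their listed starts, as did 7 of 11 that were within 2-fold and 3063 of the 9310 genes tested that were matched (32.9%). Pathway genes had more listed starts per gene, with 54 windows for 27 genes against 13582 windows for those 9310. CACGTG was found at 1 or more listed starts of 4 of the 16 lower genes and 3 of the 11 within 2-fold. That count was not made over all genes tested. Over single windows, 35.2% of windows of the pathway genes held ACGTG and 13.0% held CACGTG, beside 21.4% and 7.26% of all 35116 windows, and 25.8% and 9.72% of windows of the genes tested. A match describes the letters in the window and not a bound site.

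Transcripts of SLC2A1, for glucose uptake, and of HK1 and HK2, for glucose phosphorylation, were lower in shEIF3F. SLC2A1, which encodes the glucose transporter GLUT1, stood at 36.7 TPM in the control library and 12.4 TPM in the knockdown library, a log2 ratio of -1.50. HK1, the widely expressed hexokinase that commits glucose to metabolism, stood at 58.5 and 7.06 TPM (log2 ratio -2.88). HK2, the inducible hexokinase often raised in tumours, stood at 12.1 and 1.49 TPM (-2.40). Both hexokinases were thus at about the same fraction of control, 12.1% for HK1 and 12.3% for HK2. HK1 made up 82.8% of their summed TPM in shCON and 82.6% in shEIF3F, so the balance between them hardly differed. GPI, which turns glucose 6-phosphate into fructose 6-phosphate, differed less, at 253 and 188 TPM (-0.43).

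The control point at phosphofructokinase had a lower total and a different make-up in shEIF3F. The 3 phosphofructokinase genes summed to 273 TPM in the control library and 74.7 TPM in the knockdown library, 27.3% of control. PFKP, the platelet type, stood at 31.5 and 2.50 TPM (log2 ratio -3.21), and PFKL, the liver type, at 105 and 19.4 TPM (-2.38). PFKM, the muscle type, was the least lowered at 137 and 52.8 TPM (-1.36). Its share of the sum was 50.1% in shCON and 70.7% in shEIF3F, while that of PFKL was 38.4% and 26.0% and that of PFKP 11.5% and 3.35%.

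The PFKFB enzymes make and break down fructose 2,6-bisphosphate, a potent activator of phosphofructokinase. PFKFB3, the isozyme with the highest ratio of kinase to phosphatase activity, stood at 34.9 TPM in the control library and 1.36 TPM in the knockdown library, 25.7-fold lower in TPM (log2 ratio -3.93). It was second only to SLC16A3 among the 29 genes. PFKFB4 stood at 7.81 and 1.40 TPM (-1.88). PFKFB2, known from heart, was within 2-fold at 5.15 and 3.77 TPM (-0.37), close to the median of all genes. Exons of YOD1 lie on the opposite strand to exons of PFKFB2, and YOD1 stood at 1.59 and 3.45 TPM. PFKFB3 made up 72.9% of the summed PFKFB transcripts in shCON and 20.8% in shEIF3F, and PFKFB2 10.8% and 57.7%, at a sum of 47.9 and 6.53 TPM.

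Aldolase splits the hexose and triose phosphate isomerase interconverts the products. The summed aldolase transcripts were near the control level at 95.2%, or 128% with libraries rescaled without the 100 most abundant genes, and the isomerase was lower at 53.4%. ALDOA, the main aldolase outside liver and brain, stood at 1371 TPM in the control library and 1379 TPM in the knockdown library (log2 ratio 0.0080). It was the most abundant gene of the pathway after GAPDH in shEIF3F. ALDOC, the brain-type aldolase, stood at 115 and 36.3 TPM (-1.64), so that the ratio of ALDOA to ALDOC was 11.9 in shCON and 38.0 in shEIF3F. TPI1, the triose phosphate isomerase, stood at 1722 and 919.9 TPM (-0.90).

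From glyceraldehyde phosphate to pyruvate each of the 5 genes was lower, and 4 of them at least 2-fold (3 relative to the median of all genes). GAPDH, which oxidises the triose and is widely used as a reference transcript, stood at 5823 TPM in the control library and 3102 TPM in the knockdown library (log2 ratio -0.91). PGK1, which makes the first ATP of the pathway, stood at 172 and 55.3 TPM (-1.62). PGAM1, the brain-type phosphoglycerate mutase, stood at 429 and 111 TPM (-1.94). The enolase ENO1 stood at 1397 and 586 TPM (-1.25), the mildest of the 4. PKM, the pyruvate kinase gene whose transcripts are spliced to the M1 or the M2 form, stood at 692 and 146 TPM (-2.23), the lowest log2 ratio of the 5. The gene-level values do not separate the spliced forms. GAPDH was 33.8 times as abundant as PGK1 in shCON and 56.1 times in shEIF3F.

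**Figure D2:**
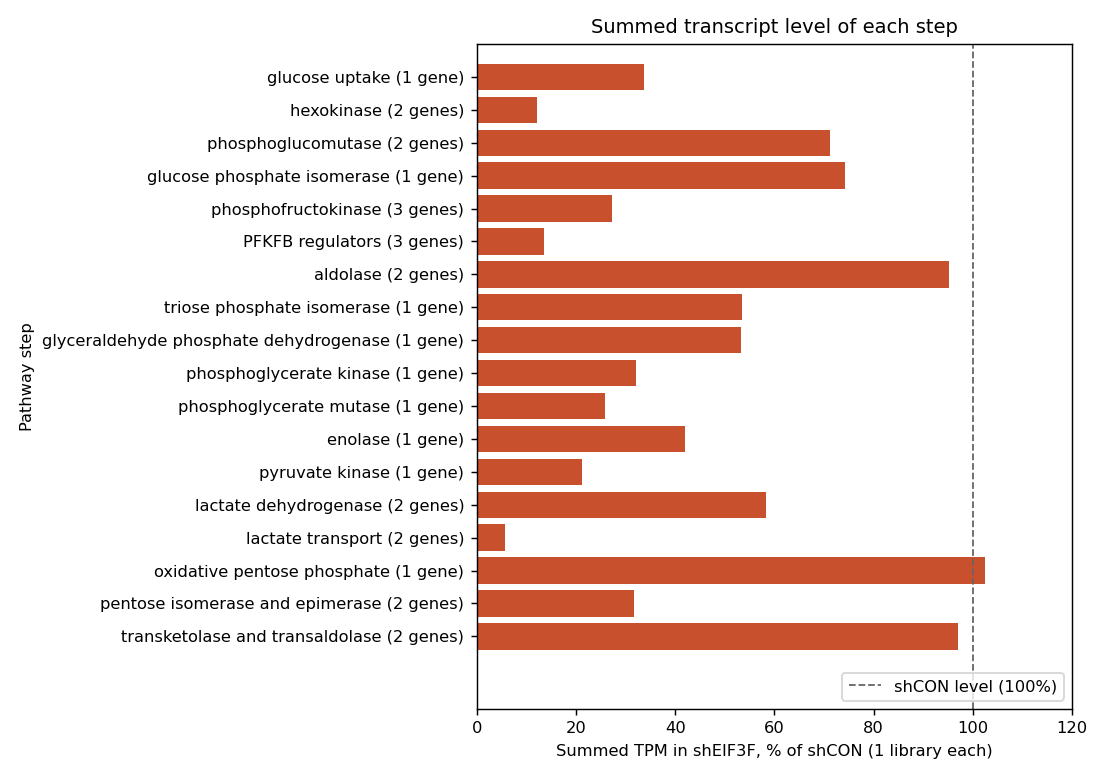
Summed TPM of the genes of each pathway step in shEIF3F as a percent of shCON, 1 library each, with the dashed line at the shCON level. Lactate transport (5.70%), hexokinase (12.1%) and the PFKFB regulators (13.6%) are lowest, and aldolase (95.2%), transketolase with transaldolase (97.1%) and PGD of the oxidative pentose phosphate arm (102%) are near the control level.

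Lactate genes split between their isozymes. LDHA, whose subunit favours the making of lactate, stood at 398 TPM in the control library and 109.6 TPM in the knockdown library (log2 ratio -1.85). LDHB, whose subunit favours the return of lactate to pyruvate, stood at 479 and 402 TPM (-0.25), above the median of all genes. LDHA was 0.831 times as abundant as LDHB in shCON and 0.273 times in shEIF3F, and its share of their sum was 45.4% and 21.4%.

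Lactate transport had the lowest summed level of all steps relative to control. SLC16A3, which encodes MCT4, the transporter typical of cells that export lactate, stood at 90.3 TPM in the control library and 0.57 TPM in the knockdown library, 158-fold lower in TPM (log2 ratio -5.86). Only 7 of the 13310 genes tested had a lower log2 ratio. A ratio against so low a level depends on the pseudocount, and it was -7.08 with 0.1 TPM added and -4.10 with 5 TPM added. Exons of CSNK1D lie on the opposite strand to exons of SLC16A3, and CSNK1D stood at 75.4 and 72.4 TPM. SLC16A1, which encodes MCT1, was lower by less, at 18.0 and 5.60 TPM (-1.53). The ratio of SLC16A3 to SLC16A1 was 5.01 in shCON and 0.102 in shEIF3F, a reversal of which transporter was the more abundant. BSG, the chaperone that brings both transporters to the membrane, was within 2-fold at 654 and 497 TPM (-0.40). EMB, a related chaperone of this transporter family, was higher at 2.04 and 5.96 TPM (1.20).

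**Figure D3:**
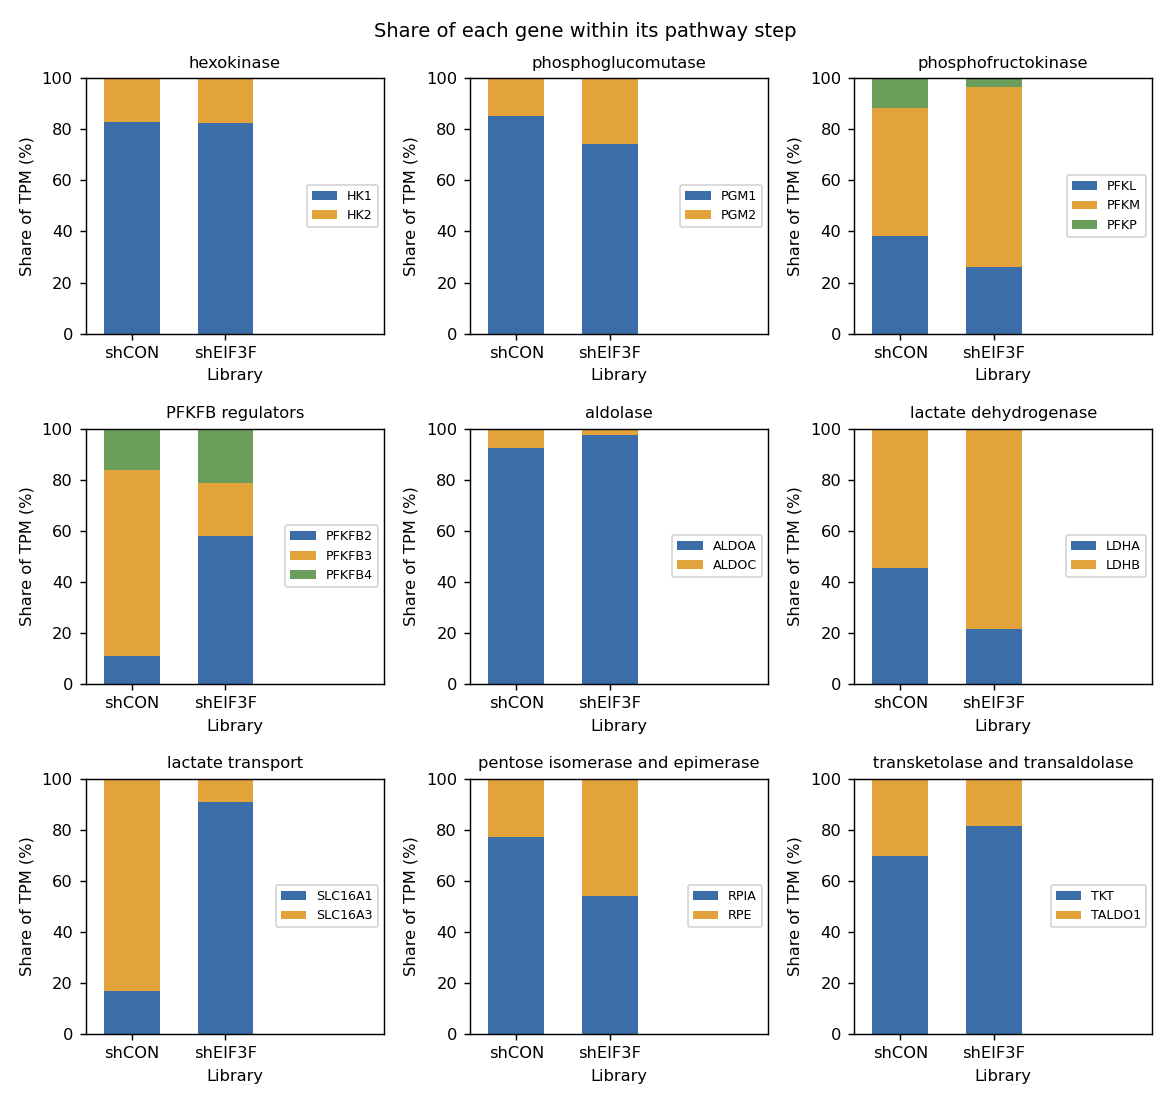
Share of summed TPM (percent) held by each gene within the 9 pathway steps with 2 or 3 measured genes, in the shCON and shEIF3F libraries. The lead passes from SLC16A3 to SLC16A1 in lactate transport and from PFKFB3 to PFKFB2 among the PFKFB regulators, while HK1 and HK2 keep nearly the same shares.

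The pentose phosphate genes were mostly within 2-fold. PGD, which releases carbon dioxide and the second NADPH of the oxidative arm, stood at 119.7 TPM in the control library and 123 TPM in the knockdown library (log2 ratio 0.033). TKT, the transketolase that links the pathway back to glycolysis, stood at 711 and 809 TPM (0.18). TALDO1, the transaldolase of the same arm, stood at 309 and 182 TPM (-0.76). RPIA, the isomerase that makes ribose 5-phosphate, was the exception at 21.7 and 4.84 TPM (-1.96). RPE, the epimerase that acts on the same substrate, stood at 6.39 and 4.09 TPM (-0.54). RPIA thus held 77.3% of the RPIA and RPE sum in shCON and 54.2% in shEIF3F.

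The phosphoglucomutases link glucose 6-phosphate to glycogen and, for PGM2, ribose phosphates. PGM1 stood at 22.1 TPM in the control library and 13.7 TPM in the knockdown library (log2 ratio -0.65). PGM2 stood at 3.85 and 4.75 TPM (0.25), the highest log2 ratio of the 29 genes.

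Other genes of the pathway, 37 isozymes, transporters and accessory enzymes, were examined in the same way. Of these, 21 averaged at least 1 TPM, of which 11 (52.4%) were at least 2-fold lower and 2 (9.52%) at least 2-fold higher, beside 25.5% and 8.44% of all genes, with a median log2 ratio of -1.02. Relative to the median of all genes 8 were lower and 2 higher by that measure, where all genes had 16% and 14.7%. With the trend of log2 ratio with GC content removed there were 5 and 2, where all genes had 13.9% and 13.3%. The count of higher genes was thus near or below that over all genes in each form. SLC2A12, the transporter GLUT12, stood at 32.1 and 1.73 TPM (-3.60), so it was close to SLC2A1 in shCON and well under it in shEIF3F. PGAM2, the muscle-type mutase, stood at 582 and 216 TPM (-1.42), above PGAM1 in both libraries. DBNL lies opposite PGAM2 with shared exon sequence and stood at 84.7 and 31.3 TPM. ENO2, the neuronal enolase, stood at 26.4 and 8.48 TPM (-1.53). PRPS1 and PRPS2, which make the activated ribose for nucleotide synthesis, had log2 ratios of -1.03 and -1.15. TIGAR, a p53 target that lowers fructose 2,6-bisphosphate, was the gene besides EMB past 2-fold upwards, at 0.32 and 1.69 TPM (1.03). Its mean passed the 1 TPM minimum only through its level in shEIF3F. The same filter acted the other way on SLC2A4, among the 11 lower genes, at 2.44 and 0.28 TPM (-1.43). TKTL1, within 2-fold, stood at 2.04 and 0.63 TPM (-0.90). The means of SLC2A4 and TKTL1 passed only through their levels in shCON. ADPGK, which phosphorylates glucose with ADP, was level at 16.8 and 16.6 TPM (-0.0090).

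Of 11 genes for transcription factors, oxygen sensors and arrestin-like proteins known to act on this pathway, 3 (27.3%) were at least 2-fold lower, near the 25.5% over all genes, and 2 (18.2%) at least 2-fold higher, beside 8.44%. Both counts stayed the same relative to the median of all genes, where all genes had 16% and 14.7%. They were also the same without the GC trend, where all genes had 13.9% and 13.3%. How these shares compare with those of all genes thus depends on the scaling. MYC, which drives many glycolytic genes, stood at 228 and 36.7 TPM (-2.60). ARNT, the partner of the hypoxia-inducible factors, stood at 14.6 and 3.97 TPM (-1.65), whereas the oxygen-regulated subunit HIF1A was within 2-fold at 6.36 and 7.81 TPM (0.26). HIF1A is controlled mainly at the protein level, which was not measured. MLXIP encodes MondoA, a sensor of glucose 6-phosphate, and stood at 21.2 and 6.41 TPM (-1.58). TXNIP, an arrestin-like protein that restrains glucose uptake, stood at 41.9 and 184 TPM (2.11). ARRDC4, a related arrestin-like protein, stood at 1.46 and 5.70 TPM (1.45).

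The scale of the comparison shifts every value. The median of all genes lay below 0, and centring on it adds 0.36 to each log2 ratio. After centring, 16 of the 29 pathway genes (55.2%) were at least 2-fold lower, beside 16% of all genes, and 0 were at least 2-fold higher, beside 14.7%. ENO1 was then within 2-fold (-0.89) and LDHB lay above 0 (0.11). A total of 24 of the 29 genes lay below the median of all genes, and the 5 above it were LDHB, ALDOA, PGD, TKT and PGM2. Rescaling the libraries without the 100 most abundant genes left 15 genes at least 2-fold lower, with PFKM (-0.93) and ENO1 (-0.82) inside 2-fold and GPI (0.0020) and LDHB (0.18) above 0. Many pathway genes are abundant, and of the 16 that averaged at least 50 TPM, 8 (50%) were at least 2-fold lower, beside 32.7% of the 1919 genes at that level, of which 7.61% were at least 2-fold higher.

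**Figure D4:**
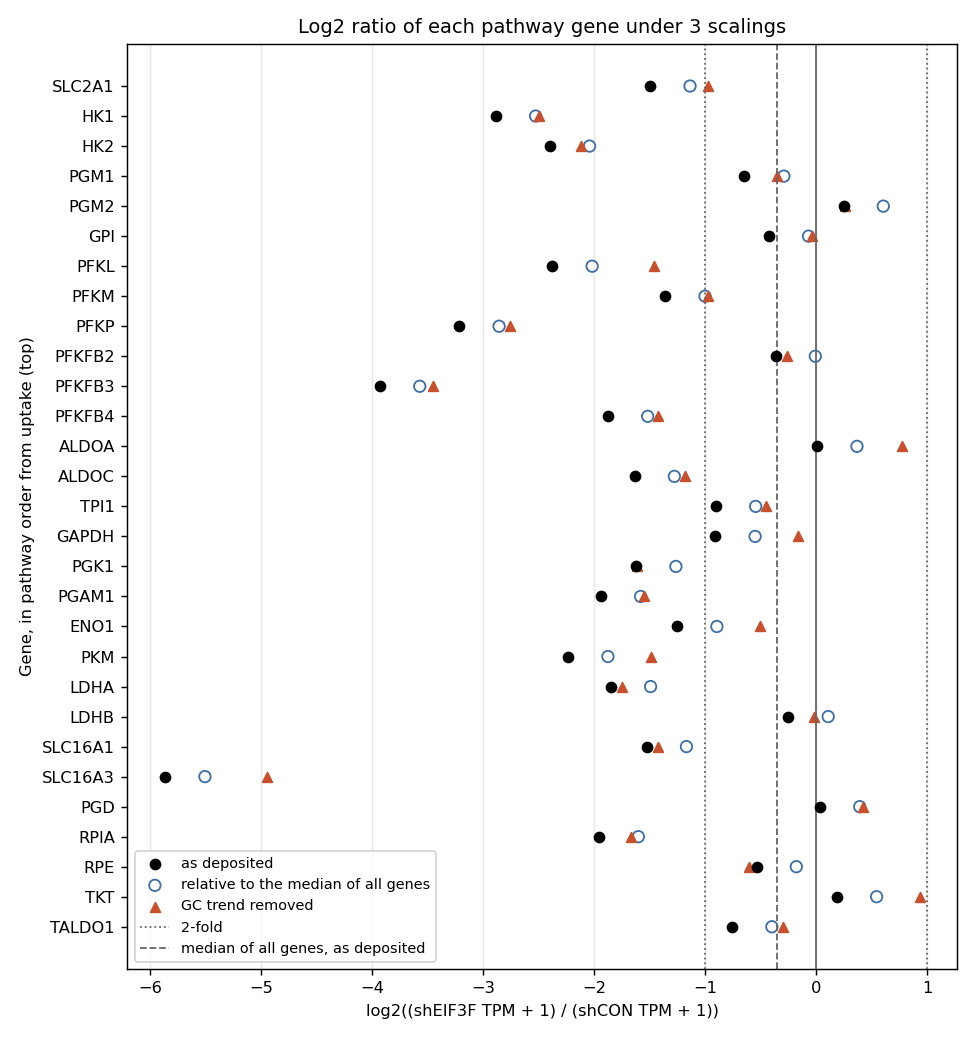
Log2 ratio of shEIF3F to shCON for each pathway gene as deposited (filled circles), relative to the median of all genes (open circles) and with the GC trend removed (triangles). Dotted lines mark 2-fold, and the dashed line marks the median of all genes at -0.36. SLC16A3, PFKFB3, PFKP, HK1 and HK2 lie beyond -2 in all 3 forms.

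Log2 ratios in this pair of libraries also went with transcript GC content. The median over all genes was 0.069 in the bin with the fewest G and C bases (36.5% GC) and -1.15 in the richest bin (66.5% GC). The median GC content of the pathway genes was 53.1%, beside 50.5% for all genes tested, and it ranged from 36.6% for RPE to 63.5% for PFKL. With the trend removed, 14 pathway genes (48.3%) were at least 2-fold lower, beside 13.9% of all genes, and 0 were at least 2-fold higher, beside 13.3%. SLC2A1 (-0.98), PFKM (-0.97) and ENO1 (-0.51) were then inside 2-fold. LDHA and PGK1 have GC-poor transcripts (44.0% and 43.3%) and had values close to those as deposited, at -1.75 and -1.61. ALDOA and TKT, both GC-rich, were higher, at 0.77 and 0.93.

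**Figure D5:**
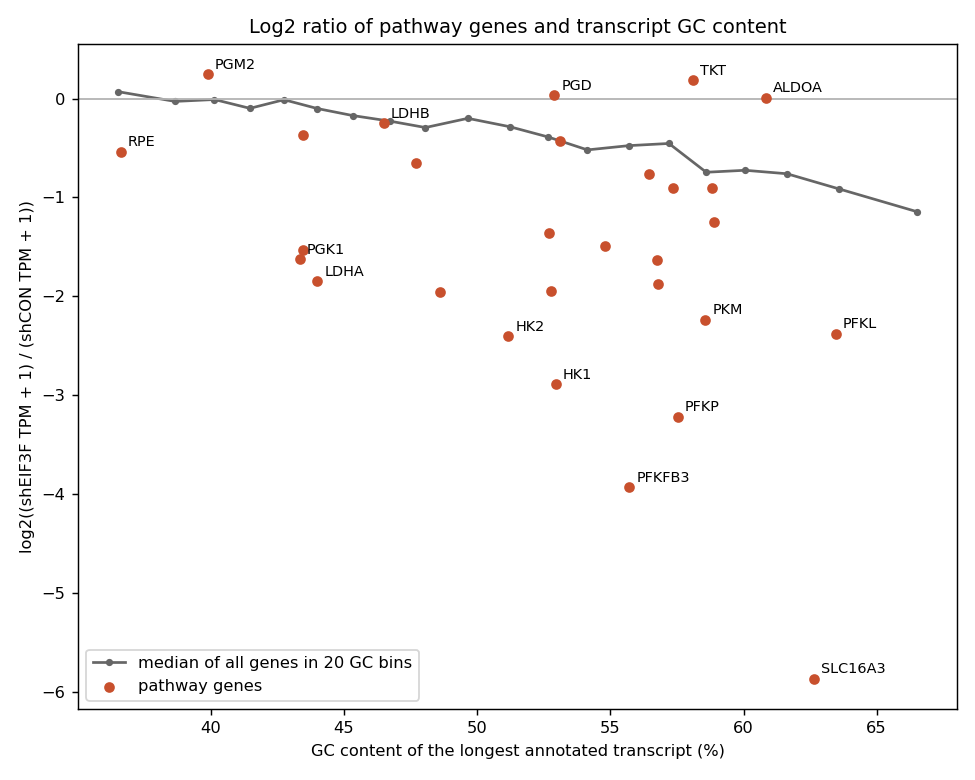
Log2 ratio of each pathway gene (points) against the GC content of its longest annotated transcript (percent), with the median log2 ratio of all genes in 20 GC bins (line). SLC16A3, PFKFB3, PFKP and HK1 lie far below the line, and TKT and ALDOA lie above it at GC contents of 58.1% and 60.8%.

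Reads shared with other genes could touch some of these values. Of the 29 genes, 19 share exon sequence with another annotated gene, and strand use is not given in the sources used here. Among the 10 that share none, 6 were at least 2-fold lower, namely PFKL, PFKFB3, PGAM1, PKM, LDHA and RPIA, and the median was -1.90. Over all genes tested, with or without shared exons, 25.5% were at least 2-fold lower. The share over all genes without shared exons was not computed, so this count has no background of its own, and the effect of shared reads was not tested. Several glycolytic genes have processed pseudogenes. The 62 entries named as GAPDH pseudogenes summed to 0.85 and 0.58 TPM, and the 13 of PGAM1 to 0.02 and 0.27 TPM. The assignment of reads that fit both a gene and its pseudogenes was not tested.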

How the data were processed

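RNA-seq of 1 shCON and 1 shEIF3F library of 22Rv1 cells was used. The authors deposited TPM per gene symbol, with 2 decimals. HISAT2, CASAVA (no versions) and hg19 are listed per the submitters' processing notes. Gene counter, annotation, strand and filters: not given in the sources used here. Columns were matched to groups by the sample descriptions. Entries repeating a symbol were summed, and 27 entries with date-like symbols and 5524 small RNA symbols were left out. TPM holds no depth, so no counting interval was computed.

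Log2 ratios used a pseudocount of 1 TPM, which understates changes of low genes, over genes averaging at least 1 TPM. Past 2-fold means 1 or more, or -1 or less. GC content and shared exons come from GENCODE release 29, matched by symbol (99.1% of genes tested had a GC value). That release describes GRCh38, whereas the processing notes list hg19, and the deposited values carry no coordinates. The GC trend was removed by centring within 20 bins. All measured pathway genes are named, with other genes from 2 lists of isozymes and regulators, some of which are not reported here. The genes and lists were chosen with earlier results of these data known. Alternatives were pseudocounts of 0.1 and 5 TPM, no filter or a mean of 5 TPM, centring, rescaling, the most abundant entry per symbol, pseudogene entries added and GC removal. Protein-coding genes only, a mean of 50 TPM and genes with no shared exon were added after seeing the data. Python 3.11.15, NumPy 2.4.6, pandas 2.3.3 and matplotlib 3.10.9 were used, and the calculations were tested on simulated data.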

Additional observations from a re-analysis of the deposited data

How the results depend on the processing

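No gene of the pathway that was at least 2-fold lower turned direction under the alternatives run, and none was at least 2-fold higher under any. The count of lower genes was 17 as reported and from 14 to 17 under the alternatives chosen at the outset, 8 at a mean of 50 TPM and 6 among genes with no shared exon, where fewer genes were counted. The median log2 ratio of the pathway was -1.56 and -1.25 with pseudocounts of 0.1 and 5 TPM, -1.14 after centring, -1.08 after rescaling, -0.98 with the GC trend removed, -1.51 at a mean of 5 TPM, -1.08 at a mean of 50 TPM and -1.90 without shared exons. Over all genes, those at least 2-fold lower and higher numbered 1897 and 475 with a pseudocount of 5 TPM, 2130 and 1958 after centring, 2114 and 2012 after rescaling, 1840 and 1755 with the GC trend removed, and 628 and 146 at a mean of 50 TPM, and 616 were higher at a mean of 5 TPM. Centring and GC removal set the median of the genes at 0 by construction, so a more even split is partly built in. They do not fix the counts past 2-fold. Rescaling raised the summed level in shEIF3F relative to shCON to 76.7% for the whole pathway, 45.5% for glucose uptake, 16.3% for hexokinase, 96.1% for phosphoglucomutase, 100.2% for GPI, 36.9% for phosphofructokinase, 18.4% for the PFKFB regulators, 128% for aldolase, 72.1% for TPI1, 71.9% for GAPDH, 43.3% for PGK1, 34.9% for PGAM1, 56.6% for ENO1, 28.5% for PKM, 78.8% for lactate dehydrogenase, 7.68% for lactate transport, 138% for PGD, 42.9% for RPIA with RPE and 131% for transketolase with transaldolase. Which scaling is right cannot be told from these files. Low levels such as those of SLC16A3, PFKFB3 and HK2 in shEIF3F rest on an unknown number of reads. No paired analysis was possible because each group has 1 library.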

Other observations

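Tissue-restricted isozymes stood at widely differing levels in these prostate cancer cells. PGAM2, the muscle-type phosphoglycerate mutase, exceeded PGAM1 in both libraries. The sum of both mutases was 1010 TPM in the control and 327 TPM in the knockdown library, or 32.4%. Exons of PGAM2 share sequence with DBNL on the opposite strand, which stood at 84.7 and 31.3 TPM. ENO3, the muscle-type enolase, stood at 11.2 and 3.60 TPM, and its exons share sequence with PFN1 on the opposite strand, which stood at 1725 and 963 TPM. The liver and red-cell pyruvate kinase PKLR reached at most 0.03 TPM. The gluconeogenic enzyme FBP1 stood at 0.12 and 0.64 TPM.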
